A study of Mus musculus with 3 samples.

Results

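The mitochondrial genome was examined as a stretch of DNA without histones in chromatin immunoprecipitation and sequencing of mouse embryonic stem (ES) cells. Its members were all 326 windows of 50 bp of the mitochondrial sequence (chrM of build mm9), out of 52838056 such windows over all sequences of the files. The mitochondrial sequence was chosen by its name and not by any value. The ES cells were of C57BL/6 origin, unmodified as far as the labels say, and were grown on gelatin without feeder cells in serum and ESGRO. By the labels the 3 groups differed in the antibody: one raised in-house against TET2, one from Novus against OGT, and one against histone H2B carrying O-linked N-acetylglucosamine (GlcNAc) on serine S112, written H2B S112GlcNAc. Each antibody had 1 library, and no input or IgG library was used here. The OGT file names its sequences by RefSeq identifiers and the other two by chromosome names, so the files differ in form as well. Every interval below is a 95% interval for counting error alone, and no difference has a replicate check.

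Mitochondrial DNA is a small circular molecule present in many copies in each cell. It is compacted by the protein TFAM instead of by nucleosomes, so an antibody against a modified histone has no known target on it. TET2 oxidises 5-methylcytosine in DNA, and OGT attaches the GlcNAc sugar to proteins. Reads on the mitochondrial genome are often used as one gauge of the background of an immunoprecipitation, and their share also depends on how much mitochondrial DNA stayed with the nuclei. The lack of histones bears on the H2B S112GlcNAc antibody only. Whether TET2 or OGT has a target on this DNA was not tested. Lysates came from sonicated nuclei, per the labels' protocols. The RefSeq gene table of GRCm38.p6 lists 37 mitochondrial genes, 13 for proteins, 2 for ribosomal RNA and 22 for transfer RNA. In that table TrnF and mt-Rnr1 come first and CYTB, TrnT and TrnP last. Because the table belongs to another build, windows were not assigned to genes.

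The mitochondrial sequence took a small share of every library, between 0.0245% and 0.0273% of the distinct ends. In the TET2 library 894 of 3832237 reads were mitochondrial, with OGT 498 of 2179445, and with H2B S112GlcNAc 1209 of 4647963. Counting reads with the same position and strand once left distinct 5′ ends, the first sequenced base of a fragment and its strand. There were 825 mitochondrial ends for TET2, which is 0.0250% of the library (0.0233 to 0.0268). OGT had 461, or 0.0245% (0.0224 to 0.0269). H2B S112GlcNAc had 1097, or 0.0273% (0.0257 to 0.0289). The histone antibody gave the highest share and OGT the lowest, and the 3 intervals overlapped.

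Ratios of shares put the antibodies close to each other. TET2 over OGT was 1.02 (0.909 to 1.15). TET2 over H2B S112GlcNAc was 0.918 (0.837 to 1.01), and H2B S112GlcNAc over OGT was 1.11 (0.995 to 1.24). For distinct ends each of the 3 intervals held 1. Counting each end once also merges separate molecules that happen to share an end. Even placement would give 10.5 such coincidences with TET2, 3.26 with OGT and 18.5 with H2B S112GlcNAc, and the ratios were not adjusted for them. With every read counted, TET2 over H2B S112GlcNAc was 0.897 (0.822 to 0.979) and H2B S112GlcNAc over OGT was 1.14 (1.02 to 1.27), so both intervals then left out 1. TET2 over OGT was 1.02 (0.914 to 1.14) in that count. Scaled to the nuclear ends outside bins that were extreme in every library, the 3 ratios were 1.01, 0.920 and 1.10.

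Beside the nuclear chromosomes the mitochondrial ratio of the histone antibody lay at one end. Each of chromosomes 1 to 19 and X held far more ends, so their narrow range does not reflect the counting error of the mitochondrial ratio. Over chromosomes 1 to 19 and X, TET2 over H2B S112GlcNAc ran from 0.966 on chromosome X to 1.02 on chromosome 11, and all 20 chromosomes lay above the mitochondrial value. H2B S112GlcNAc over OGT ran from 0.958 on chromosome 9 to 1.01 on chromosome 19, and all 20 lay below it. TET2 over OGT ran from 0.960 to 1.03, with 18 of 20 chromosomes below the mitochondrial value. The counting intervals of the mitochondrial ratios still held 20, 12 and 17 of the chromosomes for TET2 over OGT, TET2 over H2B S112GlcNAc and H2B S112GlcNAc over OGT. Chromosome Y, a far longer sequence, held a similar number of ends, at 883, 559 and 1005. Its ratios deviated the other way, at 1.07 (0.978 to 1.17) for TET2 over H2B S112GlcNAc and 0.839 (0.756 to 0.932) for H2B S112GlcNAc over OGT.

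**Figure D1:**
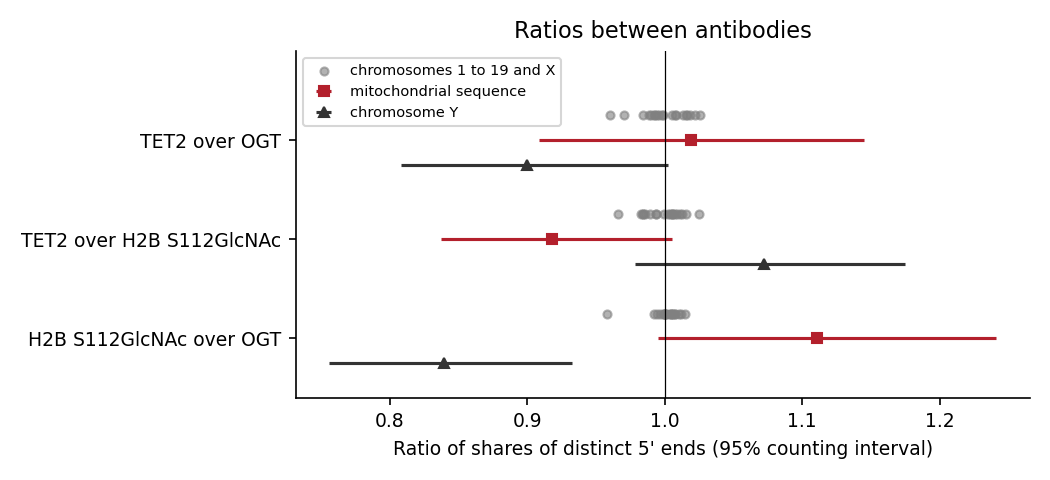
Ratio of the shares of distinct 5′ ends between 2 antibodies (x axis, with 95% counting intervals) for the mitochondrial sequence (red squares), chromosome Y (black triangles) and each of chromosomes 1 to 19 and X (grey points). The mitochondrial sequence lies at 0.918 for TET2 over H2B S112GlcNAc and at 1.11 for H2B S112GlcNAc over OGT, outside the range of the grey points, with intervals that hold 1.

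Per base the mitochondrial sequence was far denser than the nuclear genome in every library. TET2 ends numbered 50.7 per kb against 1.25 per kb over chromosomes 1 to 19 and X, a 40.6-fold difference (37.9 to 43.5). OGT had 28.3 against 0.711 per kb, 39.8-fold (36.3 to 43.6). H2B S112GlcNAc had 67.4 against 1.52 per kb, 44.2-fold (41.6 to 46.9). A cell holds many mitochondrial genomes for each pair of chromosomes, so this fold is not a measure of enrichment by an antibody. The length used was 16276 bp, the highest mitochondrial read end in the files. When the nuclear chromosomes were divided into tiles of that length, 8 tiles held as many TET2 ends as the mitochondrial sequence, 12 held as many OGT ends and 6 as many H2B S112GlcNAc ends.

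Repeated reads were not concentrated on a few mitochondrial bases. Repeats made up 7.72% of the mitochondrial TET2 reads (6.05 to 9.67), 7.43% of the OGT reads (5.28 to 10.1) and 9.26% of the H2B S112GlcNAc reads (7.69 to 11.0). On chromosomes 1 to 19 and X they were 13.9%, 13.8% and 13.4%, and outside extreme bins 6.02%, 6.30% and 5.32%. No mitochondrial end held more than 4 TET2, 3 OGT or 4 H2B S112GlcNAc reads.

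The ends were spread over the whole molecule, but not evenly. Of the 326 windows 322 held an end in at least 1 library and 178 in all 3. A window held 2.53 TET2, 1.41 OGT and 3.37 H2B S112GlcNAc ends on average. The variance divided by the mean, which is 1 for even random placement, was 1.92, 1.77 and 2.35. This value rises with the number of ends, so it does not rank the libraries. In 1 random draw down to the size of the smallest library it was 1.45, 1.77 and 1.58. The variance in excess of counting noise, divided by the squared mean, was 0.365, 0.547 and 0.401. The OGT value was the highest, but these values have no interval and do not rank the libraries either. With TET2 56 windows had no end, with OGT 111 and with H2B S112GlcNAc 37. That is 17.2%, 34.0% and 11.3% of the windows, where even placement would give 7.96%, 24.3% and 3.46%. The 33 windows with the most ends held 29.3%, 36.2% and 28.5% of the ends.

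**Figure D2:**
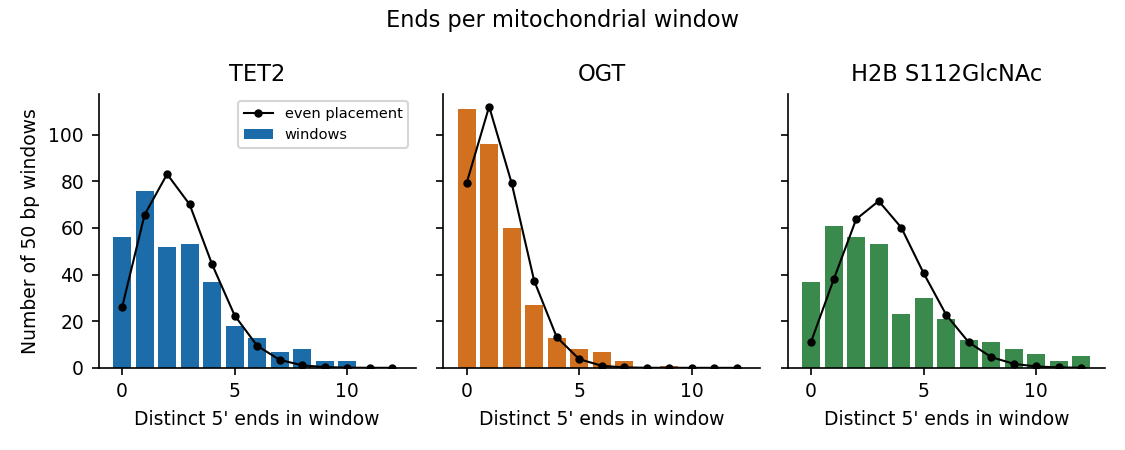
Number of mitochondrial windows of 50 bp (y axis) by the distinct 5′ ends they held (x axis) in each library, as bars, with the number that even placement of the same ends would give as black points. Each library has more empty windows than even placement, 56, 111 and 37, and more windows with many ends.

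The windows with the highest mean share were filled in every library. The highest was 5901 to 5950, with 10 TET2, 9 OGT and 12 H2B S112GlcNAc ends. Its neighbour 5851 to 5900 held 8, 5 and 12. Window 12201 to 12250 held 10, 3 and 12 ends, window 2651 to 2700 held 9, 5 and 8, window 6201 to 6250 held 9, 3 and 12, and window 1951 to 2000 held 5, 6 and 10. Thus 3 of the 6 lay between 5851 and 6250. No window stood far above the rest, with at most 10 TET2, 9 OGT and 12 H2B S112GlcNAc ends in any of them. Only 4 windows were empty in all 3 libraries, at 1551 to 1600, 3751 to 3800, 5101 to 5150 and 10501 to 10550, and none of them touched another.

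A few windows were read almost entirely from 1 strand. In window 2651 to 2700 all 9 TET2 ends, all 5 OGT ends and 7 of 8 H2B S112GlcNAc ends were on the plus strand. In window 12201 to 12250 it was 10 of 10, 1 of 3 and 11 of 12. With those OGT ends, window 12201 to 12250 fell short of the 90% asked for next. Of 95 windows with at least 10 ends over the 3 libraries, 6 had at least 90% on 1 strand (6.32%), 4 of them on the plus strand. Of 4296 nuclear windows of 50 bp that passed the same minimum, 35.6% did, and of the 1312 outside extreme bins 57.5%. Besides 2651 to 2700, the mitochondrial windows of this kind on the plus strand were 201 to 250, 3201 to 3250 and 11351 to 11400. Their pooled counts were 10 against 0, 10 against 1 and 14 against 1. On the minus strand were 13151 to 13200, with 9 of 10 ends, and 14751 to 14800, with 10 of 11.

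The unevenness was alike in the 3 libraries. Over the 326 windows Pearson's r of the counts was 0.44 for TET2 and OGT, 0.55 for TET2 and H2B S112GlcNAc and 0.54 for H2B S112GlcNAc and OGT, and Spearman's rho was 0.41, 0.50 and 0.52. Over the 16 full segments of 1 kb Pearson's r was 0.86, 0.87 and 0.94. With the counting variance taken out, r over windows was 0.96, 1.05 and 1.08. Estimates of this kind can exceed 1. Over the full segments of 1 kb the estimate was 1.01, 0.97 and 1.08. On nuclear 1 kb bins outside extreme bins it was 0.71, 0.92 and 0.74. Bins extreme in 1 library alone stayed in that nuclear set. These points share the DNA sequence, and by their read names all 3 libraries came from 1 lane of a flow cell.

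The likeness between libraries held within a strand and was weaker between strands. On the plus strand r was 0.37 for TET2 and OGT, 0.51 for TET2 and H2B S112GlcNAc and 0.42 for H2B S112GlcNAc and OGT, and on the minus strand 0.43, 0.55 and 0.46. Between the plus and minus ends of the same windows r was 0.18 within TET2, 0.17 within OGT and 0.21 within H2B S112GlcNAc. Plus ends of one library against minus ends of another gave r from -0.01 to 0.22.

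Mitochondrial ends found in 2 libraries were somewhat more frequent at the same base than at the median of nearby offsets. TET2 and OGT shared 31 ends, 3.76% of the TET2 ends and 6.72% of the OGT ends. When one library was moved by 1 to 10 bp in either direction the count ran from 14 to 30, with a median of 23. TET2 and H2B S112GlcNAc shared 65 (7.88% and 5.93%), against 35 to 72 when moved, with a median of 55. H2B S112GlcNAc and OGT shared 45 (4.10% and 9.76%), against 24 to 41, with a median of 29. Even placement would give 11.7, 27.8 and 15.5. At offset 0 the count was thus inside the range of the moved counts for TET2 and H2B S112GlcNAc, and 1 and 4 ends above its top for TET2 and OGT and for H2B S112GlcNAc and OGT. All 3 libraries had an end at 6 positions, each with at most 3 reads in a library.

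**Figure D3:**
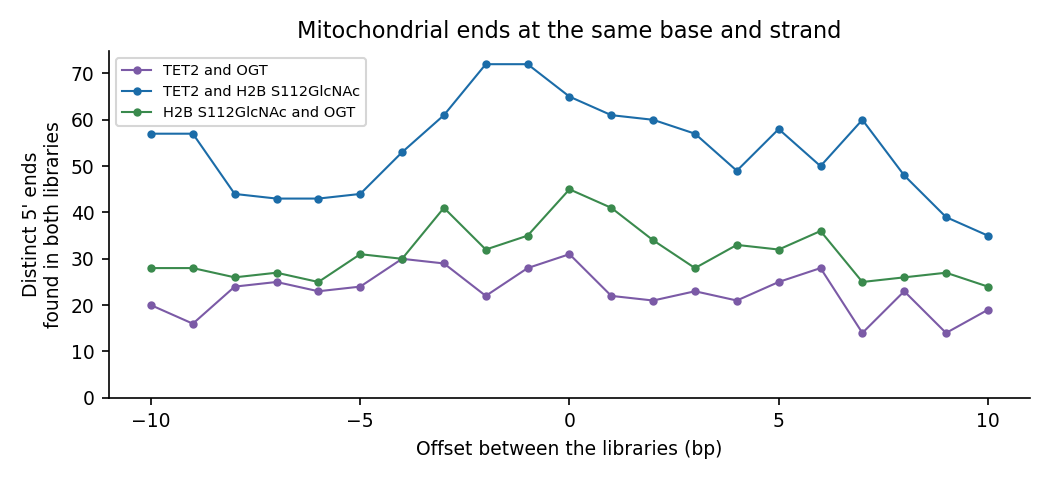
Mitochondrial 5′ ends found in both libraries of a pair at the same strand (y axis) when one library is moved by the offset on the x axis. At offset 0 the counts are 31, 65 and 45, within or slightly above the range at offsets of 1 to 10 bp.

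Along the molecule the segment of 12001 to 13000 was the densest and the middle was thin. That segment held 82 of the TET2 ends, which is 9.94% (7.98 to 12.2), 56 of the OGT ends (12.1%) and 138 of the H2B S112GlcNAc ends (12.6%), where even placement gives 6.14%. Its count was 4.10, 4.67 and 3.94 times that of the lowest full segment. The lowest was 7001 to 8000 for H2B S112GlcNAc, with 35 ends, and 10001 to 11000 for OGT, with 12. For TET2 both 7001 to 8000 and 9001 to 10000 held 20. The variance over segments in excess of counting noise, divided by the squared mean, was 0.134 with TET2, 0.175 with OGT and 0.155 with H2B S112GlcNAc. On nuclear 1 kb bins outside extreme bins it was 0.721, 0.782 and 0.362, so in each library the mitochondrial value was the lower one. The nuclear bins include enriched regions.

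**Figure D4:**
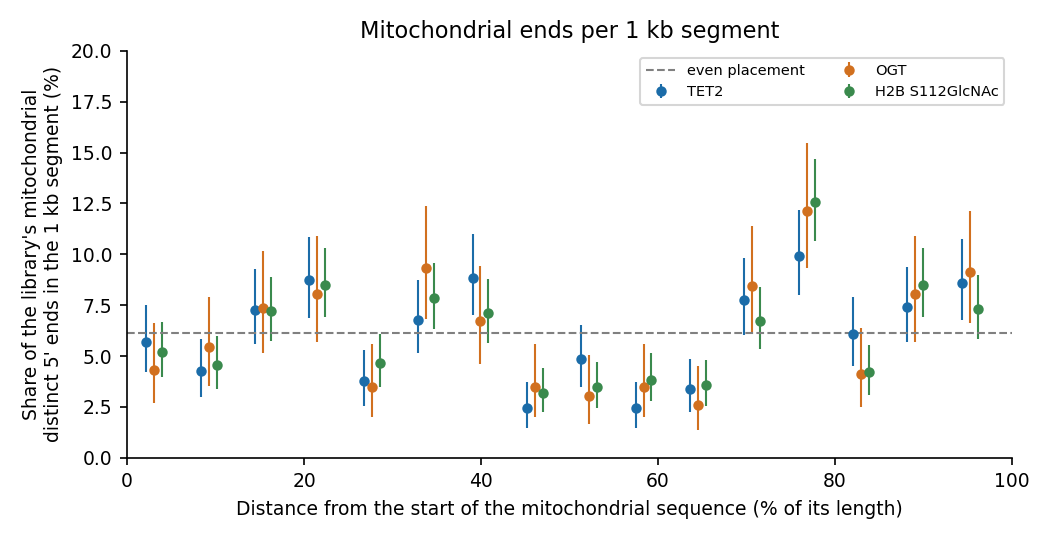
Share of a library's mitochondrial distinct 5′ ends in each of the 16 full segments of 1 kb (y axis, with 95% counting intervals) by distance from the start of the sequence (x axis, % of its length). The dashed line is even placement, 6.14%. Below it in all 3 libraries lie 8 segments, among them the 4 neighbouring ones between 43.0% and 67.6% of the length.

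No segment of 1 kb met the rule of size for a difference between antibodies. The rule asked for a ratio of library-scaled ends of at least 1.5 with an interval that leaves out 1. For TET2 over OGT 0 of 17 segments were higher and 0 lower (0%). Of the nuclear tiles of the mitochondrial length 1.91% were higher and 1.98% lower, and of the nuclear 1 kb bins with at least 10 ends over the pair 4.11% and 1.34%. For TET2 over H2B S112GlcNAc it was again 0 and 0 of 17 (0%), beside 2.14% and 2.16% of nuclear tiles and 5.17% and 0.962% of nuclear bins. For H2B S112GlcNAc over OGT it was 0 and 0 (0%), beside 1.69% and 1.72% of tiles and 1.25% and 3% of bins. At the mean nuclear density 1 kb bins hold few ends, so those that pass the minimum are unusually dense ones. A tile at that density holds about as many TET2 and OGT ends as the thinnest full mitochondrial segments, and fewer than most segments. Few ends limit the rule on the mitochondrial segments too. At 8001 to 9000 TET2 over OGT was 1.63 (0.867 to 3.24) and was not called. With 17 segments for each pair, 0 calls cannot be told from the nuclear shares.

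Of the 51 ratios, 17 segments for each pair, 1 had an interval that left out 1. It was TET2 over H2B S112GlcNAc in the densest segment, 12001 to 13000, at 0.725 (0.545 to 0.960) from 82 against 138 ends, short of the 1.5-fold rule. The segments at the ends of the order had wide intervals. TET2 over OGT was highest in the short last segment, 16001 to 16276, at 2.14 (0.681 to 8.84) from 15 against 4 ends, and lowest at 7001 to 8000 and 9001 to 10000, both at 0.712 (0.351 to 1.47) from 20 against 16 ends. TET2 over H2B S112GlcNAc was highest at 13001 to 14000, at 1.33 (0.871 to 2.02), and lowest at 9001 to 10000, at 0.581 (0.323 to 1.01) from 20 against 42 ends. H2B S112GlcNAc over OGT was highest in the last segment, at 2.10 (0.692 to 8.53), and lowest at 11001 to 12000, at 0.886 (0.593 to 1.34). With every read counted the segment 9001 to 10000 met the rule, with 20 TET2 against 48 H2B S112GlcNAc reads and a ratio of 0.505 (0.284 to 0.868).

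At 50 bp the counts were small, and most of the extreme ratios had intervals that held 1. Among windows with at least 10 ends over the pair, TET2 over OGT was at least 2-fold higher in 1 of 22 (4.55%) and lower in 6 (27.3%). TET2 over H2B S112GlcNAc was higher in 5 of 60 (8.33%) and lower in 11 (18.3%), and H2B S112GlcNAc over OGT was higher in 7 of 44 (15.9%) and lower in 5 (11.4%). Nuclear windows of 50 bp with the same minimum were higher and lower in 9.12% and 15.1% of 2731 for TET2 over OGT, in 11.7% and 3.69% of 3065 for TET2 over H2B S112GlcNAc, and in 4.15% and 23% of 2629 for H2B S112GlcNAc over OGT. Outside extreme bins, a set chosen after the values were seen, these shares were 22.6% and 46.3% of 611, 32.4% and 4.23% of 568, and 3.85% and 64.7% of 493. That set left out only bins extreme in all 3 libraries, so windows dense in 1 library alone stayed in it. Its shares are therefore no plain nuclear rate to set beside the mitochondrial ones. At the mean nuclear density a window of 50 bp holds far fewer ends, so the nuclear windows that pass this minimum are unusually dense ones. The highest TET2 over OGT was in window 5651 to 5700, at 2.85 (0.607 to 26.7) from 10 against 2 ends, and the lowest at 2001 to 2050, at 0.326 (0.0699 to 1.28). For TET2 over H2B S112GlcNAc the extremes were 4.88 (0.974 to 47.2) at 6601 to 6650 and 0.271 (0.0285 to 1.31) at 3551 to 3600. Window 14701 to 14750 held 11 H2B S112GlcNAc, 0 OGT and 4 TET2 ends, and the exact interval of H2B S112GlcNAc over OGT there began at 1.17. That window passed the minimum through its H2B S112GlcNAc ends alone. The lowest H2B S112GlcNAc over OGT was 0.200 (0.0334 to 0.876) at 13001 to 13050, from 3 against 7 ends. These were the most extreme of many windows, so an interval that left out 1 in one of them is no support for a difference. The minimum was on the summed count, so a window could pass through 1 library alone. The 2-fold counts asked for no interval.

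A block of 4 neighbouring segments, 7001 to 11000, was thin in every library. It was the longest run of full segments below even placement in all 3 libraries, and this rule was chosen after the values were seen. Counting those outside the block, 8 full segments lay below even placement in every library, so thin segments were not confined to it. The block makes up 24.6% of the sequence. It held 108 TET2 ends, 13.1% of them (10.9 to 15.6), 58 OGT ends, 12.6% (9.69 to 16.0), and 154 H2B S112GlcNAc ends, 14.0% (12.0 to 16.2). The density inside was 0.462 times that outside with TET2, 0.442 times with OGT and 0.501 times with H2B S112GlcNAc. That these lie below 1 in all 3 libraries follows from the rule. The intervals of the ratios between antibodies held 1 inside the block: TET2 over OGT was 1.06 (0.764 to 1.49), TET2 over H2B S112GlcNAc 0.856 (0.663 to 1.10) and H2B S112GlcNAc over OGT 1.24 (0.911 to 1.71).

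The dip fell mostly on the minus strand. Minus ends inside were 0.266 times as dense as outside with TET2 (0.180 to 0.380), 0.253 times with OGT (0.147 to 0.410) and 0.241 times with H2B S112GlcNAc (0.168 to 0.337). The plus ends of the TET2 library were 0.685 times as dense (0.526 to 0.882), those of OGT 0.664 times (0.459 to 0.938) and those of H2B S112GlcNAc 0.761 times (0.616 to 0.933). Inside the block 75 of 108 TET2 ends were on the plus strand, 69.4% (59.8 to 77.9). The plus share there was 69.0% (55.5 to 80.5) with OGT and 76.0% (68.4 to 82.5) with H2B S112GlcNAc. Outside it the plus share was 46.9%, 45.9% and 50.1%.

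Over the whole sequence the plus strand held 49.8% of the TET2 ends (46.4 to 53.3), 48.8% of the OGT ends (44.2 to 53.5) and 53.7% of the H2B S112GlcNAc ends (50.7 to 56.7). On chromosomes 1 to 19 and X it was 52.5%, 52.5% and 52.6%. Outside the block the H2B S112GlcNAc library had 472 plus and 471 minus ends, and inside it 117 and 37.

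**Figure D5:**
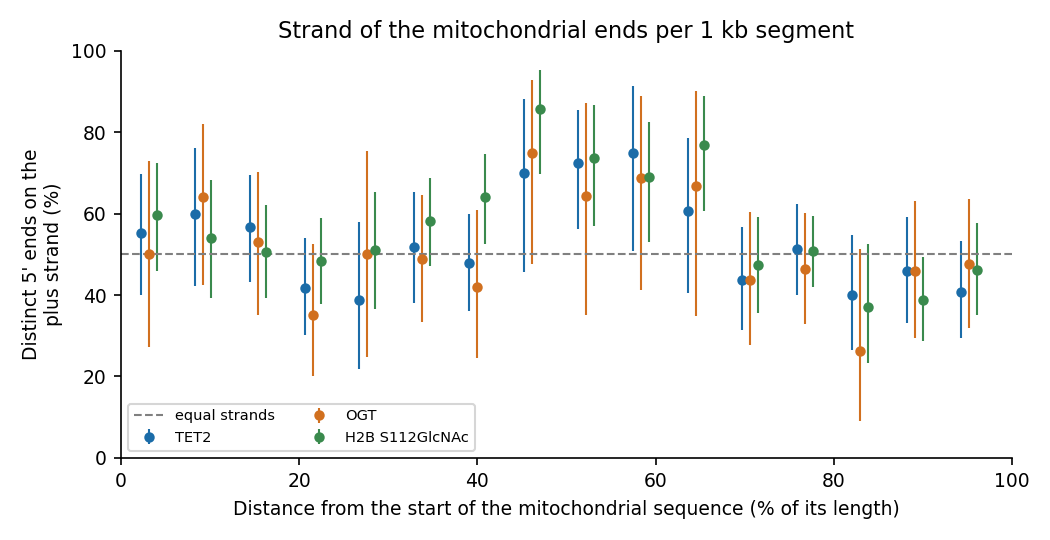
Share of distinct 5′ ends on the plus strand (y axis, with 95% counting intervals) in each of the 16 full segments of 1 kb by distance from the start of the mitochondrial sequence (x axis, % of its length). In the 4 segments between 43.0% and 67.6% of the length all 3 libraries lie above 50%, the dashed line.

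A dense place on chromosome 1 was set beside this block. Stretches of the nuclear genome that are copies of mitochondrial DNA are known in mouse, one long copy lies on chromosome 1, and a read that matches both places can be assigned to either. The RefSeq table of GRCm38.p6 lists on chromosome 1 the pseudogene Gm10925, with mt-Atp6 among its synonyms, next to the pseudogene Gm10222. Runs of at least 4 bins of 1 kb with at least 5 times the nuclear mean in every library numbered 52. The run on chromosome 1 at 24618001 to 24623000 of mm9 was picked from them, with the values and this background known. It held 173 TET2, 70 OGT and 192 H2B S112GlcNAc ends, and 4 of its 5 bins were extreme. Extreme bins were common among the runs, since only 5 of the 52 held none.

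The mitochondrial block held 126 fewer TET2 ends than its length would at the density outside it, 73.3 fewer OGT ends and 153 fewer H2B S112GlcNAc ends. A shortfall in every library follows from how the block was chosen. On the chromosome 1 run 131 of 173 TET2 ends were on the plus strand, 57 of 70 OGT ends and 136 of 192 H2B S112GlcNAc ends. Other runs were skewed as well, in either direction. The plus shares were 80.8%, 78.9% and 80.4% at 15124001 to 15130000 of chromosome 5. They were 26.7%, 15.6% and 38% at 3000001 to 3005000 of chromosome 11. The shortfall of the mitochondrial block was 91.1, 53.0 and 116 ends on the minus strand and 34.5, 20.3 and 36.8 on the plus strand. Whether the sequences match was not tested, since no genome sequence of the build was used here.

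With the chromosome 1 run added, mitochondrial and run ends made up 0.0303% of all ends with TET2, 0.0283% with OGT and 0.0320% with H2B S112GlcNAc. TET2 over OGT was then 1.07 (0.963 to 1.19), TET2 over H2B S112GlcNAc 0.945 (0.869 to 1.03) and H2B S112GlcNAc over OGT 1.13 (1.02 to 1.26). The last interval left out 1, which it did not for the distinct ends of the mitochondrial sequence alone. With every read counted, the interval of that sequence alone left out 1 too (1.02 to 1.27). On the run by itself TET2 over OGT was 1.41 (1.06 to 1.89), TET2 over H2B S112GlcNAc 1.10 (0.890 to 1.36) and H2B S112GlcNAc over OGT 1.28 (0.969 to 1.71). The run was picked with the values known, so an interval that left out 1 with it is no support for a difference.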

How the data were processed

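The deposited files hold 1 aligned read of 44 bp per line (start, end, name, score, strand). The authors' score was 255 throughout and was not used. The submitters' processing notes name mm9, CASAVA 1.4 and Bowtie 0.12.2. For reads that match several places the treatment is, in the sources used here, not given. Within a file each read name occurred once, and 0 names were shared between files. The members and lists were chosen with earlier results of these data known.

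A read was placed in a window by its 5′ end, without a shift, and reads with the same end were collapsed into 1. Shares have Clopper-Pearson intervals, densities exact Poisson intervals, and ratios the exact interval of the split of the summed count. PCR reads are not independent molecules, so all intervals cover counting error alone. A 1 kb bin was called extreme when it was among the top 0.1% in all 3 libraries. Named windows were the 6 with the highest mean share, the 3 longest empty stretches (4 tied at 1 window) and the extremes of each ratio. The low block, the counts by strand, the nuclear 50 bp windows and the chromosome 1 run were chosen after seeing the data. The statistics were tested on simulated data with Python 3.11.15, numpy 2.4.6 and scipy 1.17.1.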

Additional observations from a re-analysis of the deposited data

How the results depend on the processing

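No paired analysis was possible because there was 1 library for each antibody. The main results gave 117 values under other settings, of which 96 stayed within their 95% interval, within 1.5 times (variance over mean and counts) or within 0.1 (r), 21 moved and 0 changed sign; the 12 values of named windows and segments stayed. With every read counted the TET2 share was 0.0233% and its density 37.8-fold, and 1 segment differed between TET2 and H2B S112GlcNAc, and the cause was not tested. Leaving out 7001 to 11000, chosen after seeing the data, lowered the shares by construction to 0.0217%, 0.0215% and 0.0234% for TET2, OGT and H2B S112GlcNAc. It raised the density to 46.8-fold, 46.1-fold and 50.4-fold and put the plus share of H2B S112GlcNAc at 50.1%. In windows of 1 kb the variance over the mean was 7.77, 5.99 and 11.5, since larger windows hold more ends. For TET2 and OGT, TET2 and H2B S112GlcNAc, and H2B S112GlcNAc and OGT, r was 0.56, 0.68 and 0.67 in windows of 100 bp and 0.86, 0.87 and 0.94 in windows of 1 kb. In 1 random draw down to the smallest library, with fewer ends, r was 0.35 for TET2 and H2B S112GlcNAc and 0.43 for H2B S112GlcNAc and OGT. The depth limits the comparison at 50 bp most, where a window held 1.41 to 3.37 ends on average.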

Other observations

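On the mitochondrial sequence, minus ends lay a short way to the right of plus ends more often than even placement gives. Pairs with the minus end to the left were not counted, so the values do not show a direction. The uneven density along the molecule was not taken out. Within 99 bp there were 1396 such pairs of TET2 ends, 548 of OGT ends and 2670 of H2B S112GlcNAc ends, which is 1.34, 1.68 and 1.45 times even placement. At 300 to 399 bp it was 1.11, 1.18 and 1.12 times. At 43 bp, the read length less 1, the counts were 13, 6 and 24, beside medians of 13, 4 and 23 over the other distances up to 400 bp.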
